A study of Rattus norvegicus with 3 samples.

Results

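The genes described here are Myc, the gene of the transcription factor MYC, and 9 genes of ribosome biogenesis, the assembly of new ribosomes in the nucleolus: Ncl, Nolc1, Nop56, Nop58, Fbl, Polr1b, Wdr43, Rrp12 and Bop1. They were found by gene symbol in the deposited table of each library, 10 of 32883 genes, and each symbol had a single row. All 10 passed the filter on low counts, a CPM (each count relative to the scaled total of its library, on the usual CPM scale) of at least 1 in at least 1 library, which left 15543 genes. Myc itself had 1.18 CPM in the control and would pass there alone.

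MYC pairs with MAX on E-box sequences in DNA and raises transcription of many growth genes, among them genes of every step of ribosome production. Myc is an early response gene with a short-lived transcript, and its level is low in most mature neurons. In the nucleolus RNA polymerase I transcribes the ribosomal RNA precursor, small nucleolar ribonucleoproteins modify it, and successive assembly complexes fold and cut it into the small and the large ribosomal subunit.

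RNA came from retinas of Sprague-Dawley rats at postnatal day 60 and was depleted of ribosomal RNA, in 3 libraries with 1 per group. The CTL library is labelled as untreated, while the protocol describes sham surgery, in which the cannulated eye was held without raised pressure, at 2.66 kPa. HIOP, for high intraocular pressure, was sampled 12 h after 60 min at 110 mmHg, a pressure that stops blood flow until it is released. The HIOP_GSK library had the same injury, with a drug known only as GSK injected into the anterior chamber 24 h before it. No eye with injury and vehicle injection is described, nor how many animals each library holds.

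Deposited counts summed to between 15132754 and 17221510 per library. Each group has 1 library, so differences could not be set against the spread between replicates, and p-values were not computed. The interval after each fold is an exact 95% interval of the ratio of 2 counts and covers counting error only. Reads that carry no molecular identifiers cannot be taken as separate molecules, so it may be too narrow even for that error. The interval narrows as counts rise, so it excludes 1 at smaller folds in genes with more counts. Shares of all genes by interval, given below, were not matched for count. All 9 listed rod genes had counts in every library, with a summed level of 27900 CPM in CTL, 26800 in HIOP and 19230 in HIOP_GSK. In a whole retina, fewer cells of a type and less RNA per cell cannot be told apart.

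Myc stood apart from the other genes in CTL and after injury. It had 19 counts in CTL, 842 in HIOP and 421 in HIOP_GSK, or 1.18, 49.2 and 27.7 CPM. Its level was thus close to the filter limit in the control and far above it in both injured retinas, with the HIOP_GSK library between the others. Myc was 41.7-fold higher in HIOP than in CTL (26.5 to 69.6), and 50 of the 15543 genes had a larger log2 ratio. The small control count gives this fold a wide interval, but its lower bound lay above the upper bound of each of the other 9 genes. By the deposited TPM, a level per transcript length, Myc was at 0.95 in CTL, 39.3 in HIOP and 19.5 in HIOP_GSK, a ratio of 41.3 between the first pair.

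**Figure D1:**
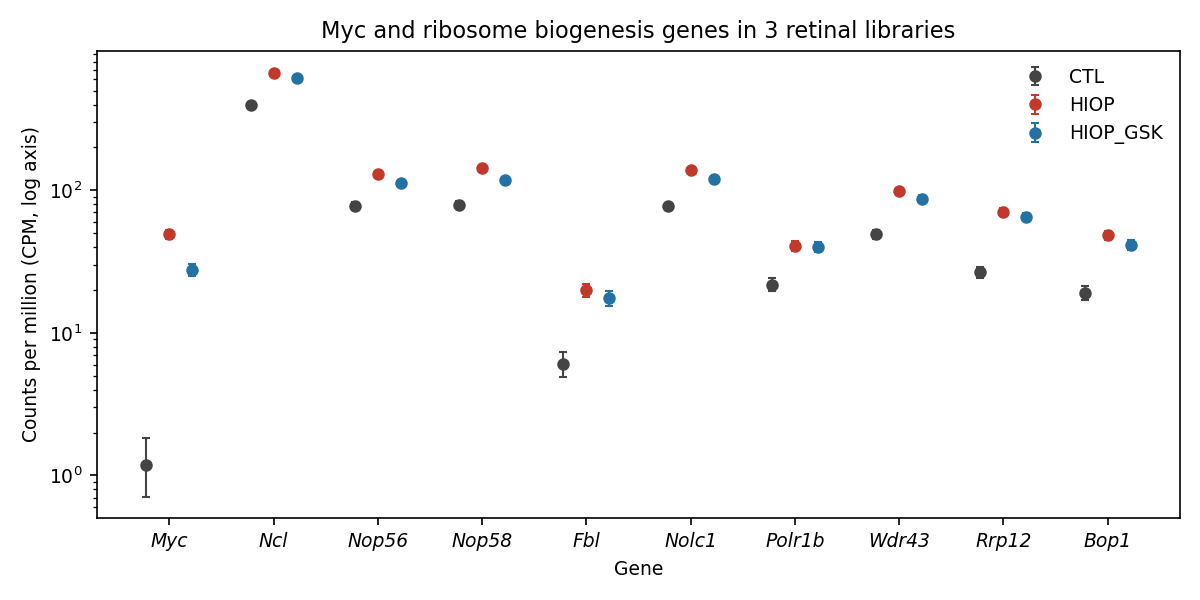
CPM on a log axis for the 10 genes in CTL (grey), HIOP (red) and HIOP_GSK (blue), 1 library each, with exact 95% Poisson intervals of the count. Each gene is lowest in CTL and highest in HIOP, and Myc spans the widest range, from 1.18 to 49.2 CPM.

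Ncl and Nolc1 encode abundant nucleolar phosphoproteins: nucleolin binds ribosomal DNA and precursor RNA, and NOLC1 is a chaperone of small nucleolar ribonucleoproteins. Ncl had 6361, 11386 and 9343 counts in CTL, HIOP and HIOP_GSK, equal to 395, 665 and 614 CPM. It was 1.68-fold higher in HIOP than in CTL (1.63 to 1.74). Nolc1 had 1245, 2371 and 1826 counts, equal to 77.3, 138 and 120.0 CPM, and was 1.79-fold higher in HIOP (1.67 to 1.92). Both genes were lowest in CTL, and neither reached 2-fold.

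Nop56, Nop58 and Fbl encode core proteins of the box C/D small nucleolar ribonucleoproteins, and fibrillarin, the product of Fbl, is their methyltransferase. Nop56 had 1256, 2248 and 1707 counts in CTL, HIOP and HIOP_GSK and was 1.68-fold higher in HIOP than in CTL (1.57 to 1.80). Nop58 had 1281, 2448 and 1791 counts and was 1.80-fold higher (1.68 to 1.92). Fbl had 97, 340 and 267 counts, equal to 6.03, 19.9 and 17.5 CPM, and was 3.30-fold higher (2.62 to 4.17). The interval of Fbl thus lay above those of its partners in the same particle. Fbl has a close paralog, Fbll1, with 230, 151 and 152 counts, 1.62-fold lower in HIOP than in CTL (1.31 to 2.0). How reads shared by these paralogs were assigned is not given in the sources used here, and the values of Fbl are uncertain to that extent. By deposited TPM, Fbl was 2.99-fold higher in HIOP, at 16.3 in CTL, 48.7 in HIOP and 46.2 in HIOP_GSK. In CTL it had 5.95 deposited counts per unit of TPM, against 20 to 63.9 for the other 9 genes, and whether length alone sets that gap was not tested.

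Polr1b encodes a core catalytic subunit of RNA polymerase I. It had 350, 697 and 612 counts in CTL, HIOP and HIOP_GSK, equal to 21.7, 40.7 and 40.2 CPM. It was 1.87-fold higher in HIOP than in CTL (1.64 to 2.13), and its levels in the injured libraries were nearly equal.

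Wdr43 and Rrp12 act on the small subunit: WDR43 belongs to the complex that assembles on the nascent precursor, and RRP12 takes part in maturation and nuclear export of the particle. Wdr43 had 793, 1709 and 1330 counts in CTL, HIOP and HIOP_GSK and was 2.03-fold higher in HIOP than in CTL (1.86 to 2.21). This fold lies on the 2-fold limit, and by deposited TPM it was 1.97. Rrp12 had 428, 1217 and 986 counts, equal to 26.6, 71.1 and 64.8 CPM, and was 2.67-fold higher (2.39 to 2.99). Bop1, whose product joins PES1 and WDR12 in a complex that processes the RNA of the large subunit, had 308, 829 and 630 counts, equal to 19.1, 48.4 and 41.4 CPM. It was 2.53-fold higher in HIOP than in CTL (2.22 to 2.89).

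All 10 genes were higher in HIOP than in CTL, and 5 of them (Myc, Fbl, Rrp12, Bop1 and Wdr43) by at least 2-fold, against 9.0% of all genes compared. The lower bound of the interval was above 1 for all 10, where it was for 32.7% of all genes. No gene of the 10 was lower by 2-fold, against 8.04% of all genes. With the lower bound in place of the fold itself, 4 genes passed the 2-fold limit (5.76% of all genes), since that of Wdr43 was 1.86. At a limit of 1.5-fold all 10 passed (16.1% of all genes). The median log2 ratio of the 10 genes was 0.96, and 0.90 without Myc, while that of all genes was 0.0042. Without Myc, the folds of the other 9 genes ran from 1.68 to 3.30.

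**Figure D2:**
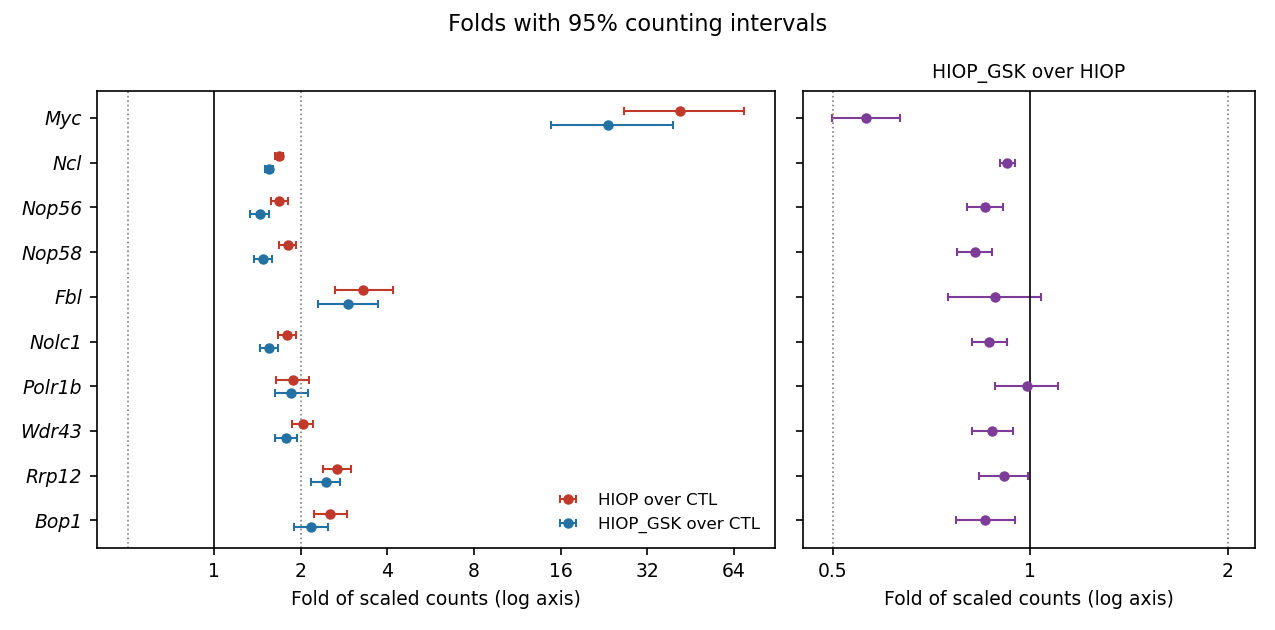
Folds of scaled counts on log axes with exact 95% counting intervals, 1 library per group: HIOP over CTL (red) and HIOP_GSK over CTL (blue) on the left, HIOP_GSK over HIOP (purple) on the right, with dotted lines at 2-fold. All folds over CTL lie above 1, and in HIOP_GSK over HIOP Myc lies lowest at 0.562.

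Because E-boxes are the sites that MYC and MAX bind, the start regions of these genes were searched for CACGTG, which reads the same on both strands, and for the variant CACGCG on both strands. The 2 motifs cannot overlap each other. Of the 10 genes, 7 had a promoter window in the RefSeq table of the rat build GRCr8, each 300 bases long, with 250 bases before the start site and 50 from it. Myc, Wdr43 and Bop1 had none there. The stretches below, 30 bases each and written 5′ to 3′ along the gene's strand with the motif in capitals, are all the matches found in the 7 windows.
Fbl, chr1:92597416-92597445, plus strand, motif starting at base 22 from the start site: ggcgcttttttcCACGTGtgaaagcctgag
Rrp12, chr1:250655298-250655327, minus strand, motif starting at base 4: gctgagaatacaCACGTGggttctgctgtg
Nolc1, chr1:254870195-254870224, plus strand, CACGCG on the opposite strand, motif starting 152 bases before the start site: acaggatgacgaCGCGTGtgagaccggaag
Nolc1, chr1:254870362-254870391, plus strand, CACGCG on the opposite strand, motif starting at base 16: cttcagtcgtacCGCGTGcgcaacggtagt

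CACGTG was thus in 2 of 7 windows, those of Fbl and Rrp12. It was in 6.42% of all 33469 windows in the table and in 8.79% of the 12013 windows of genes that passed the filter. Among the other MYC pathway and ribosome biogenesis genes listed below, 45 of 167 windows held it, or 26.9%. CACGCG was in 1 of 7 windows, in 8.5% of all windows, in 16% of those of filtered genes and in 29.3% of the 167. The 44 listed pathway genes with CACGTG in a window had a median log2 ratio of 0.71 in HIOP over CTL, and the 114 without it one of 0.56. For CACGCG the order was the reverse, with a median of 0.57 in the 46 genes that held it and 0.60 in the 112 that did not. Among filtered genes with a window, the medians were 0.10 in the 1010 with CACGTG and 0.02 in the 9660 without it. Windows were matched by gene symbol, and a gene can have more than 1. Genes without a window, among the 15543 filtered and the 178 listed, are left out of these shares and medians. A match describes letters in these windows only, and binding was not measured.

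In HIOP_GSK, each of the 10 genes was lower than in HIOP, and none by 2-fold, where 1.69% of all genes were lower and 4.56% higher by that much. The counting interval lay below 1 for 8 of the 10, against 20% of all genes, and above 1 for none, against 20.1%. All genes include many with fewer counts, and these shares were not matched for count. At a limit of 1.5-fold, Myc was the 1 gene that was lower (4.82% of all genes) and none was higher (9.68%). Myc differed most. It was at 27.7 CPM against 49.2 and was thus 1.78-fold lower (1.58 to 2.0) by counts and 2.01-fold lower by deposited TPM, which places it on either side of the 2-fold limit. Of all genes, 97.5% had a higher log2 ratio than Myc in this comparison.

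The other 9 genes were 1.01-fold to 1.22-fold lower in HIOP_GSK than in HIOP, and the median of their log2 ratios was -0.19, where the median of all genes was -0.0024. The box C/D gene Nop58 had the largest difference among them, 1.22-fold lower (1.14 to 1.29), followed by Nop56 at 1.17-fold (1.10 to 1.25) and Bop1 at 1.17-fold lower (1.05 to 1.3). Nolc1 was 1.15-fold lower (1.08 to 1.23), Wdr43 1.14-fold (1.06 to 1.23), Rrp12 1.10-fold (1.01 to 1.19) and Ncl 1.08-fold lower (1.05 to 1.11). Fbl at 1.13-fold lower (0.961 to 1.33) and Polr1b at 1.01-fold lower (0.907 to 1.13) had intervals that included 1. These differences are small, and what share of them separate animals would show is unknown with 1 library per group. As a share of the CPM excess of HIOP over CTL, which draws on all 3 libraries, 55.2% was present in HIOP_GSK for Myc and from 60.1% to 97.4% for the other genes. No interval was computed for these shares. For the fold of HIOP_GSK over HIOP, the interval of Myc lay below that of each of the other 9 genes.

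Against CTL, all 10 genes were still higher in HIOP_GSK, with intervals above 1 for all 10 (33.1% of all genes). This comparison shares the CTL library with the first, so the folds are given side by side and not as separate support. Myc was 23.4-fold higher than CTL (14.8 to 39.3) in HIOP_GSK and 41.7-fold in HIOP. By at least 2-fold, 4 genes were higher in HIOP_GSK: Myc, Fbl at 2.91-fold (2.30 to 3.71), Rrp12 at 2.44-fold (2.17 to 2.74) and Bop1 at 2.16-fold (1.89 to 2.49), against 10.4% of all genes, and no gene was lower by that much (6.32%). The lower bound was at or above 2-fold for 3 of them (6.82% of all genes), all but Bop1. At 1.5-fold, 8 genes were higher (17.6% of all genes). Wdr43 was 1.77-fold higher (1.62 to 1.94) and Polr1b 1.85-fold (1.62 to 2.12). Ncl, Nolc1, Nop58 and Nop56 had the smallest folds over CTL, from 1.55 for Ncl (1.5 to 1.60) to 1.44 for Nop56 (1.34 to 1.55).

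Per transcript length, by deposited TPM, Ncl was the most abundant of the 10 genes in each library, at 217 in CTL, 336 in HIOP and 316 in HIOP_GSK. Nop56 and Nop58 followed, at 53.5 and 40.4 in CTL and 82.9 and 75.8 in HIOP. Polr1b had 5.92 in CTL, 11.0 in HIOP and 10.5 in HIOP_GSK and was the lowest in both injured libraries. Myc ranked 10 of 10 in CTL, 6 of 10 in HIOP and 7 of 10 in HIOP_GSK. Without replicates there is no spread by which neighbours in this order could be compared. The 10 genes together took 0.0754% of counts in CTL, 0.140% in HIOP and 0.125% in HIOP_GSK. Their summed counts were 1.87-fold higher in HIOP than in CTL (1.83 to 1.91) and 1.13-fold lower in HIOP_GSK than in HIOP (1.11 to 1.15), sums in which Ncl weighs most.

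Another 178 genes of the same pathways passed the filter, from 8 lists that leave the 10 genes out. Of them, 38 were higher in HIOP than in CTL by 2-fold or more (9.0% of all genes). Lower by that much were 2, Mycn and Rrp1b (8.04% of all genes). The median log2 ratio of the 178 was 0.59. In the 6 ribosome biogenesis lists alone, 130 of 134 genes had a ratio above 0, and 29 were at least 2-fold higher (21.6%, where all genes had 9.0%).

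RNA polymerase I genes had a median log2 ratio of 0.58 in HIOP over CTL. Of 14, 3 were at least 2-fold higher (9.0% of all genes). Polr1g, a subunit gene that the files call Cd3eap, had 46, 230 and 153 counts in CTL, HIOP and HIOP_GSK and was 4.70-fold higher in HIOP (3.41 to 6.60). Polr1e, another subunit gene, was 2.22-fold higher (1.82 to 2.74), and Polr1a, which encodes the largest subunit, was 1.97-fold higher (1.79 to 2.16). Ubtf, the factor that keeps ribosomal genes open, had a ratio of 1.0 (0.948 to 1.06) in the same comparison.

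Of 12 genes of small nucleolar ribonucleoproteins and nucleolar chaperones that passed the filter, 3 were at least 2-fold higher in HIOP (9.0% of all genes). Their median was 0.63. Npm1, nucleophosmin, had 1911, 5593 and 4608 counts in the 3 libraries and was 2.75-fold higher in HIOP than in CTL (2.61 to 2.90). Its relative Npm3 was 2.61-fold (1.92 to 3.59) and Gar1, of the box H/ACA particles, 2.28-fold higher (1.93 to 2.71). Nhp2, a partner of Gar1, had 0 counts in all 3 libraries, so the counting of that gene is uncertain.

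All 37 genes of the small subunit processome had a ratio above 0 in HIOP over CTL and an interval above 1 (32.7% of all genes). Their median was 0.60, and 7 were at least 2-fold higher (9.0% of all genes). Among them were Rcl1 at 2.75-fold (2.33 to 3.27), Wdr46 at 2.65-fold (2.30 to 3.05) and Pwp2 at 2.37-fold (2.11 to 2.68). Of 10 genes of later small subunit maturation and export, 2 were at least 2-fold higher (9.0% of all genes), and the median was 0.48. These were Bysl, which encodes bystin, at 2.91-fold (2.46 to 3.46) and Pno1 at 2.24-fold (1.93 to 2.62).

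Large subunit assembly genes had a median log2 ratio of 0.65 in HIOP over CTL. Of 46, 13 were higher by at least 2-fold (9.0% of all genes) and 1 lower (8.04%). Pak1ip1 was 3.56-fold higher (2.94 to 4.33), Ftsj3 2.88-fold (2.57 to 3.24) and the RNA helicase gene Ddx21 2.71-fold higher (2.52 to 2.90). The partners of Bop1 had smaller folds than Bop1 itself: Wdr12 was 2.11-fold (1.81 to 2.46) and Pes1 1.65-fold higher (1.51 to 1.81), both given here after their values were seen. Rrp1b went the other way, with 4934, 2044 and 1980 counts, 2.57-fold lower in HIOP than in CTL (2.44 to 2.70), and its deposited TPM values were 88.9, 31.2 and 33.6. The exosome, which degrades and trims precursor RNA, had a median of 0.27, the lowest of the 6 biogenesis lists. Of its 15 genes, 1 was at least 2-fold higher (Exosc6 at 2.05-fold, 1.43 to 2.98). That is 6.67%, below the 9.0% of all genes.

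**Figure D3:**
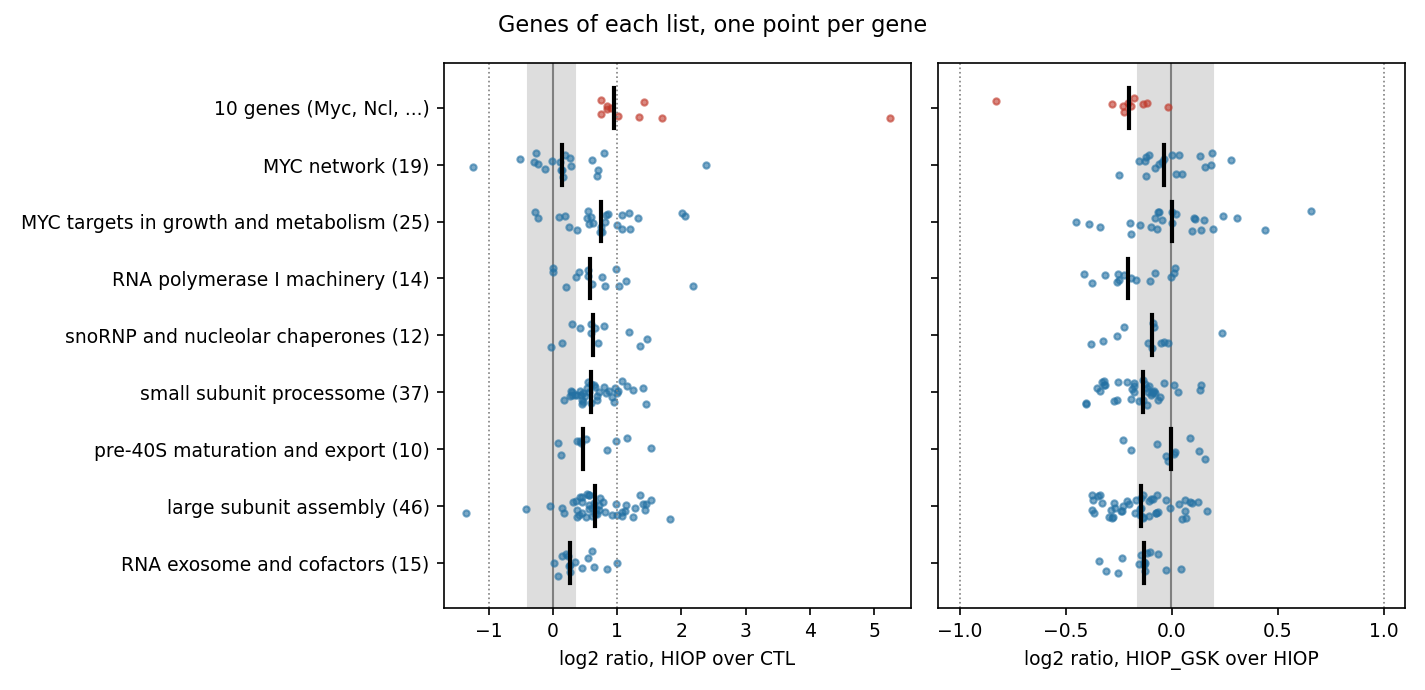
Log2 ratios of HIOP over CTL (left) and HIOP_GSK over HIOP (right), 1 point per gene, for the 10 genes (red) and 8 pathway lists (blue), with the number of genes in brackets, black bars at list medians and a grey band from the lower to the upper quartile of all 15543 genes. On the left the medians of the 6 biogenesis lists lie between 0.27 and 0.65, and on the right no listed gene reaches a log2 ratio of 1 or -1.

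Genes that act around MYC had smaller differences than Myc. Of 19 genes of the MYC network that passed the filter, 1 (Pim1) was higher by at least 2-fold in HIOP over CTL and 1 (Mycn) lower, where all genes had 9.0% higher and 8.04% lower, and the median log2 ratio was 0.15. Mycn, a close relative of Myc that is active in developing retina, had 129, 57 and 62 counts in CTL, HIOP and HIOP_GSK, which made it 2.41-fold lower in HIOP (1.75 to 3.35). Mycl, the other relative, had 72, 65 and 56 counts. Max, the obligate partner, had 1657, 2140 and 1747 counts and was 1.21-fold higher in HIOP (1.14 to 1.3). Of the antagonists that compete for MAX, Mxd4 was 1.43-fold lower (1.33 to 1.53) and Mxd1 had a ratio of 1.08 (0.998 to 1.17). Mxi1 was 1.205-fold lower (1.113 to 1.305), while Mnt was 1.11-fold higher (1.02 to 1.21). Pim1, a kinase gene induced by cytokines whose product phosphorylates MYC, had 58, 331 and 305 counts and was 5.37-fold higher (4.05 to 7.22).

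**Figure D4:**
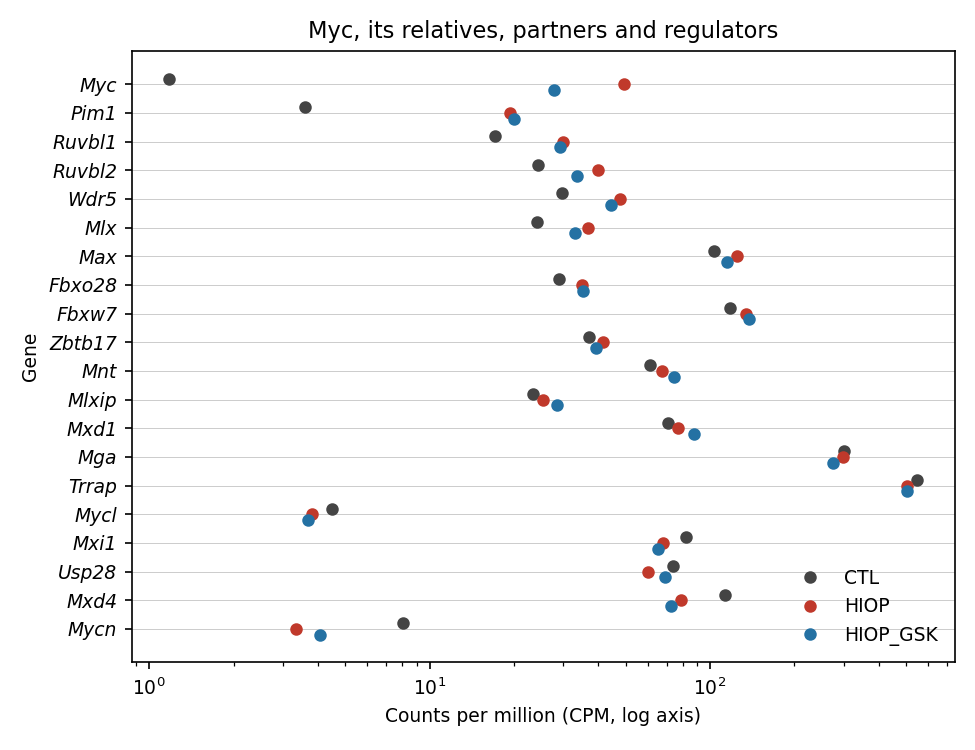
CPM on a log axis for Myc and the 19 genes of the MYC network, ordered by their log2 ratio in HIOP over CTL, in CTL (grey), HIOP (red) and HIOP_GSK (blue), 1 library each. Myc and Pim1 lie to the left in CTL and to the right in both injured libraries, Mycn the reverse, and most others change little.

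Known MYC targets in growth and metabolism had a median log2 ratio of 0.75 in HIOP over CTL. Of 25, 8 were higher by at least 2-fold (9.0% of all genes) and 0 lower (8.04%). Srm, among the 8, lay on the limit at 2.07-fold (1.32 to 3.3). Its deposited TPM was 0 in all 3 libraries, so the counting of that gene is uncertain. Odc1, the rate-limiting enzyme of polyamine synthesis, had 1688, 7479 and 5075 counts and was 4.17-fold higher in HIOP (3.95 to 4.39). Ccnd1, cyclin D1, had 341, 1462 and 2054 counts and was 4.03-fold higher (3.58 to 4.55). The translation factor gene Eif3b was 2.5-fold higher (2.31 to 2.69). Tfrc, the transferrin receptor, was 1.22-fold lower (1.14 to 1.29), and Nme1 was 1.18-fold lower (1.03 to 1.34).

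In HIOP_GSK over HIOP, none of the 178 other pathway genes was 2-fold different in either direction. Of all genes, 1.69% were lower and 4.56% higher by that much. Whether the lists differ from all genes in this was not tested. In the 6 biogenesis lists 112 of 134 genes had a ratio below 0, with a median of -0.13, and the interval lay below 1 for 60 (20% of all genes) and above 1 for 6 (20.1%). By step, the median was -0.21 for RNA polymerase I genes, -0.14 for the small subunit processome and -0.14 for large subunit assembly, but -0.0039 for later small subunit maturation and export. Examples are Taf1c, of a factor that recruits RNA polymerase I, at 1.3-fold lower (1.14 to 1.48), Gar1 at 1.31-fold lower (1.13 to 1.51), Pwp2 at 1.33-fold (1.20 to 1.47) and Nop2, an RNA methyltransferase gene, at 1.3-fold lower (1.19 to 1.41).

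Among the MYC targets, the median in HIOP_GSK over HIOP was 0.0012, with genes on both sides. Shmt2, a mitochondrial enzyme of serine metabolism, had 565, 1269 and 825 counts and was 1.37-fold lower in HIOP_GSK than in HIOP (1.25 to 1.49), and Odc1 was 1.31-fold lower (1.26 to 1.36). Ccnd1 was 1.58-fold (1.48 to 1.69) and Tfrc 1.36-fold higher (1.28 to 1.44).

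The 4 genes whose pattern lay nearest to that of Myc, of 11290 genes with a symbol and a mean of at least 5 CPM, were Runx1, Ifit3, Adamts4 and Lif. Likeness was the distance between the pairs of log2 ratios HIOP over CTL and HIOP_GSK over HIOP, over 3 libraries, and ran from 0.17 for Runx1 to 0.32 for Lif. Runx1, a transcription factor gene, had 13, 534 and 272 counts in CTL, HIOP and HIOP_GSK. Lif, the gene of a cytokine of the interleukin-6 family, had 16, 619 and 262 counts. No gene of the pathway lists could be among these 4, so their absence is no result. The largest log2 ratio in those lists was 2.38 in HIOP over CTL, against 5.24 for Myc.

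Markers of other cells differed between the same libraries, and their part in the values above was not tested. Calls by 2-fold are to be read against 9.0% of all genes higher and 8.04% lower in HIOP over CTL, and 4.56% and 1.69% in HIOP_GSK over HIOP. Of 11 neutrophil and monocyte markers, 7 had 0 counts in CTL, including S100a8 and Cxcr2, and their summed level was 1.61 CPM in CTL, 148 in HIOP and 176 in HIOP_GSK. The 8 that passed the filter had a median log2 ratio of -0.0058 in HIOP_GSK over HIOP, with 4 above and 4 below 0. The sum of 9 microglia and macrophage markers was 36.4, 64.1 and 137 CPM, with 3 higher and 3 lower by 2-fold in HIOP over CTL and 7 higher in HIOP_GSK over HIOP. For 13 markers of dividing cells it was 75.6, 112 and 239 CPM, with 2 of 13 higher by 2-fold in HIOP over CTL and 10 of 13 in HIOP_GSK over HIOP. The sum of 14 lens markers was 1303, 3623 and 12710 CPM, and 10 and 12 of 14 were higher by 2-fold in these comparisons, with 1 lower in the second.

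Other marker sums were lower in HIOP than in CTL. Müller glia markers, 8 in all, summed to 4264, 2479 and 3085 CPM, and by 2-fold 5 of 8 were lower and 1 higher in HIOP over CTL, and 3 of 8 higher in HIOP_GSK over HIOP. For 8 ganglion cell markers the sum was 596, 270.0 and 294 CPM, with 6 of 8 lower by 2-fold in HIOP over CTL and 0 different by 2-fold in HIOP_GSK over HIOP. For 8 corneal epithelium markers, Pax6 among them, it was 574, 229 and 275 CPM, with 6 of 8 lower and then 6 of 8 higher by 2-fold. Their median log2 ratio in HIOP over CTL was -3.09, in a range from -5.16 to -0.50. Genes with smaller differences thus weigh most in this sum, and how much of it comes from cornea was not tested. The 6 pigment epithelium markers summed to 348, 143 and 204 CPM, and the 5 that passed the filter were lower by 2-fold in HIOP over CTL. The 5 endothelium markers summed to 640, 378 and 466 CPM, with 1 of 5 lower by 2-fold in HIOP over CTL and 2 of 5 higher in HIOP_GSK over HIOP.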

How the data were processed

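Retinal RNA was sequenced in 3 libraries, 1 per group, taken from the labels. RSEM 1.3.1, STAR 2.5.4b and the build Rnor_6.0 are named, without their role, per the submitters' processing notes. Whether counting used strand is not given in the sources used here, and overlapping or antisense genes are uncertain. The deposited counts are whole numbers and not normalized. The deposited TPM values have the same total in each library, keep no depth, and served as an alternative and to compare levels between genes. Their ratios between libraries differ somewhat from those of the counts, and how the deposited counts relate to the TPM values is not given in the sources used here.

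Counts were scaled with TMM factors of edgeR 4.0.16 (R 4.3.3), 1.000, 0.994 and 1.006 for CTL, HIOP and HIOP_GSK, over all 32883 genes. Genes with at least 1 CPM in at least 1 library were kept. Log2 ratios used a prior count of 2, and calls a limit of 2-fold. Folds are ratios of scaled counts with exact Clopper-Pearson 95% intervals (scipy 1.17.1). The functions were tested on simulated data. No test across libraries was possible.

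Of 187 listed pathway genes, 183 matched, 5 of them by a synonym in the RefSeq table of GRCr8, and 178 were kept; 4 were not analysed here. The 10 genes, the lists and the markers were chosen with earlier results of these data known. From each list, up to 3 genes per comparison and direction with the most extreme interval bound could be named. Wdr12, Pes1, Ubtf, Mycl, Mxi1, Srm, Fbll1 and Nhp2 were singled out after their values were seen. The rule for genes most like Myc takes 5, of which 1 is not reported here.

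Alternatives were total counts, DESeq2 1.42.0 size factors, totals without mitochondrial and the 20 most abundant genes, deposited TPM (pseudocount 0.5), prior counts of 0.5 and 10, a CPM limit of 5 or none in the filter, a limit of 1.5-fold, and the interval bound in place of the ratio.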

Additional observations from a re-analysis of the deposited data

How the results depend on the processing

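The log2 ratios of the 10 genes kept their sign under all 8 alternatives under which they were recomputed. Among these, changing the filter (a CPM limit of 5 or none) cannot alter a gene's ratio, so there the result was fixed in advance. Outside the counting interval lay only values by deposited TPM: for HIOP over CTL 0.63 (Ncl), 0.63 (Nop56) and 0.71 (Nolc1), and for HIOP_GSK over CTL 3.79 for Myc and 0.54 for Ncl. Myc lay outside through the pseudocount of 0.5: the plain TPM ratio of 20.5 was within its interval. TPM moved the median of all genes in HIOP over CTL to -0.11. The 2-fold limit was passed by 5 of the 10 genes in HIOP over CTL under each alternative except deposited TPM and the interval bound, which left 4 (without Wdr43), and the 1.5-fold limit, which gave 10 (16.1% of all genes). In HIOP_GSK over CTL the 4 genes became 8 at 1.5-fold, and in HIOP_GSK over HIOP 1 gene, Myc, was lower at 1.5-fold.

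Of the other pathway genes, those higher in HIOP over CTL numbered 20 by the interval bound and 90 at 1.5-fold, and those lower 1 by the bound. In HIOP_GSK over CTL they were 13 and 70 higher, and the 1 lower gene became 2 by TPM, 2 without the filter and 4 at 1.5-fold. In HIOP_GSK over HIOP 1 was higher at 1.5-fold and 1 lower without the filter.

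For all genes, the interval bound gave 895 higher and 535 lower for HIOP over CTL, 283 and 90 for HIOP_GSK over HIOP, and 1060 and 384 in HIOP_GSK over CTL. At 1.5-fold these were 2508 and 2733, 1504 and 749, and 2739 and 2585. Without the filter 2113 were lower for HIOP over CTL, 1448 higher and 711 lower in HIOP_GSK over HIOP, and 2534 higher and 1826 lower in HIOP_GSK over CTL. At CPM 5 these 5 counts were 773, 336, 114, 1055 and 594. A prior count of 10 left 153 lower in HIOP_GSK over HIOP. For limits and filters the change follows from the setting; for TPM the cause was not tested.

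No paired analysis was possible because each group has 1 library. Depth limits Myc most, through its 19 counts in CTL.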
